A study of Caenorhabditis elegans with 20 samples.

Results

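Argonaute proteins are the effectors of small RNA pathways, and their transcripts were followed here in whole L3 larvae of Caenorhabditis elegans. The list held 10 genes out of the 15568 in the deposited RNA-seq table. They were chosen by name and function, with earlier results of these data known. The members were hrde-1 (C16C10.3), csr-1 (F20D12.1), prg-1 (D2030.6), alg-1 (F48F7.1), alg-2 (T07D3.7), ergo-1 (R09A1.1), rde-1 (K08H10.7), ppw-1 (C18E3.7), wago-1 (R06C7.1) and nrde-3 (R04A9.2). All 10 were in the table, and all 10 passed the filter on low values. The study asked how DREAM, a repressor complex that holds cell cycle genes down, depends on its Rb-like subunit LIN-35 and on the histone variant HTZ-1/H2A.Z. For this it sequenced the mRNA of 3 genotypes grown at 20°C, with 2 libraries each. By the labels, the embryos were left to hatch in M9 buffer for between 24 and 42 h, and larvae were collected at the L3 stage one day after they were given food. The wild type was N2, the reference laboratory strain. The second genotype was lin-35(n745), a mutant of the sole Rb/p130-like gene of the worm. The third was htz-1(ok3099), whose homozygous larvae come from heterozygous mothers that carry the nT1[qIs51] balancer and were separated from their balanced siblings on a COPAS worm sorter. Such larvae can inherit HTZ-1 from the mother. For N2 and lin-35 a sucrose gradient is described in place of sorting, so an effect of this handling and an effect of the htz-1 genotype cannot be told apart. The labels and the methods of the study give the htz-1 strain under different VC numbers. It is not stated whether replicates were grown separately, so the p-values reflect only the variation among these libraries and that variation may be technical.

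An Argonaute carries a short guide RNA and acts on transcripts that pair with it. In C. elegans the family is large and its members divide the work: some bind microRNAs, some bind the piRNAs of the germline, some bind the primary siRNAs cut from double-stranded RNA, and the worm-specific WAGO group binds the secondary siRNAs that RNA-dependent RNA polymerases then make. Some act in the cytoplasm or in the perinuclear granules of the germline (P granules), and others carry their guides into the nucleus, where they act on chromatin and transcription. In whole larvae these pathways overlap, since some Argonautes are confined largely to germ cells and others work in the soma.

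The values are RPKM, which are reads per kilobase of gene model and scaled to the depth of the library. The totals behind them were 13604791 to 18301926 reads per library. The smallest whole read numbers that give the members' RPKM were 406 to 5397 per library, and the true counts may be multiples of these. The counting error, for sampling of reads only, was thus at most 4.96% at the lowest and 1.36% at the highest value. For the tests each library was divided by a size factor, between 0.946 and 1.11, and the 9679 genes whose RPKM averaged at least 1 were fitted with limma on log2(RPKM + 0.5). A gene was called where its Benjamini-Hochberg adjusted p was under 0.05. Transcript levels could not check the lin-35 labels, because lin-35(n745) is a nonsense allele. Its libraries had 12.8 and 13.3 RPKM of lin-35 mRNA, beside 12.1 and 11.1 RPKM for wild type. The htz-1 transcript had 78.5 and 81.3 RPKM in wild type, 138 and 155 RPKM in lin-35, and 65.6 and 27.8 RPKM in htz-1. Its change in htz-1 did not pass (log2 fold change -0.90, limma adjusted p = 0.0762). Since the htz-1 libraries also differed from each other, this transcript did not settle their labels either. In bulk larvae, fewer cells of a type and less RNA per cell cannot be told apart. The libraries of a genotype also differed in the levels of germline marker genes. Over 23 tested germline marker genes, the ratio of replicate 2 to replicate 1 had a median of 1.09 in N2, 1.29 in lin-35 and 1.19 in htz-1, while the median over all 9679 genes was 1.00 in each genotype.

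In N2 larvae 9 of the 10 members lay close together and nrde-3 lay below them. The highest was prg-1, at 36.6 ± 2.3 RPKM (SD, n = 2), followed by csr-1 at 34.7 ± 0.69 RPKM and wago-1 at 29.6 ± 3.17 RPKM. The microRNA Argonautes came next, with alg-1 at 26.6 ± 1.37 RPKM and alg-2 at 25.1 ± 0.88 RPKM. Below them were hrde-1 at 22.7 ± 2.05 RPKM, rde-1 at 22.01 ± 0.85 RPKM, ppw-1 at 21.3 ± 2.01 RPKM and ergo-1 at 18.4 ± 1.87 RPKM. The N2 libraries overlapped between prg-1 and csr-1, between wago-1 and alg-1, between alg-1 and alg-2, between hrde-1 and rde-1, and between rde-1 and ppw-1, so the order within these pairs was not larger than the spread. The gene nrde-3, at 7.66 ± 0.62 RPKM, was the lowest of the members in all 6 libraries. The members sat between percentile 36.6 (nrde-3) and percentile 79.5 (prg-1) of the mean N2 levels of all tested genes.

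**Figure D1:**
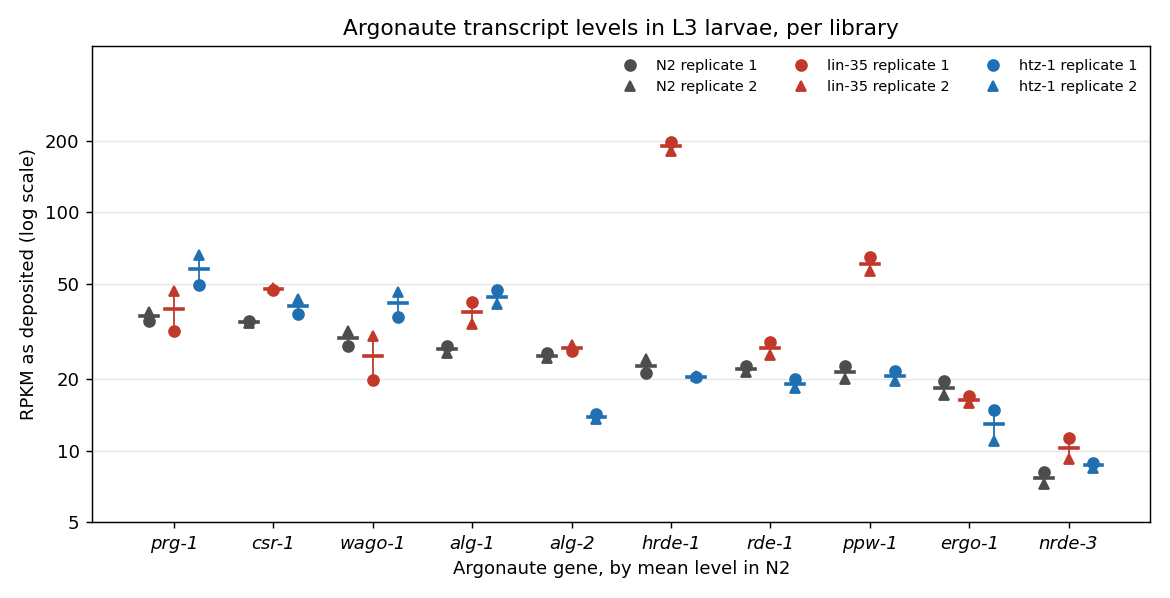
RPKM of the 10 Argonaute genes in each of the 6 libraries, on a log scale, ordered by mean level in N2. Circles are replicate 1, triangles replicate 2 and bars the mean of each genotype. The lin-35 libraries of hrde-1 stand at 198 and 182 RPKM, and those of ppw-1 at 65.2 and 56.7 RPKM, above every other library of the same gene.

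In lin-35 larvae, 2 of the 10 Argonaute genes rose and none fell at an adjusted p under 0.05 from limma, against a background of 12.1% of all tested genes higher and 11.6% lower (23.8% in either direction). The genes that rose were hrde-1 and ppw-1, both of the WAGO group. No member was lower at an unadjusted p under 0.05 either, and limma-voom on the reads recovered from the RPKM also called 2 higher and 0 lower. The median log2 fold change of the 10 members was 0.16, beside -0.01 over all tested genes.

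HRDE-1 is the nuclear Argonaute of the germline, which takes secondary siRNAs to nascent transcripts and carries silencing from one generation to the next. Its transcript stood at 21.2 and 24.1 RPKM (N2), 198 and 182 RPKM (lin-35) and 20.3 and 20.6 RPKM (htz-1). The lin-35 libraries lay far above all others, and the htz-1 libraries lay just below both N2 libraries. The log2 fold change in lin-35 was 2.86 (SE 0.10, 95% interval 2.62 to 3.10, limma adjusted p = 2e-05), and the scaled level was 7.38 times that of N2. Only 1.24% of the tested genes had a higher log2 fold change in this comparison. With the rise, hrde-1 went from eighth and sixth of the 10 members in the N2 libraries to the highest in both lin-35 libraries, and from 8.66% and 9.89% of their summed RPKM to 40.7% and 38.2%. Summed over the members as deposited, the N2 libraries held 245 and 244 RPKM and the lin-35 libraries 486 and 476 RPKM. After scaling these sums were 254 and 257 RPKM against 439 and 447 RPKM. Without hrde-1 the deposited sums were 224 and 220 RPKM against 289 and 294 RPKM. This difference still holds the rise of ppw-1 and the scaling, with size factors of 1.11 and 1.06 in lin-35 beside 0.965 and 0.950 in N2.

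PPW-1 is a WAGO protein that RNA interference in the germline needs. Its transcript stood at 22.7 and 19.9 RPKM (N2), 65.2 and 56.7 RPKM (lin-35) and 21.6 and 19.5 RPKM (htz-1). The lin-35 libraries were clear of the other genotypes, which overlapped each other. Against N2 the log2 fold change was 1.32 (SE 0.11, 95% interval 1.06 to 1.57, limma adjusted p = 0.000309), a scaled level 2.52 times that of N2, and 4.54% of the tested genes had a higher one. The close paralog sago-2 had a similar pattern, at 20.5 and 17.3 RPKM (N2), 57.1 and 48.3 RPKM (lin-35) and 17.6 and 15.2 RPKM (htz-1). Reads of these near copies may be shared between them, so their rises are not independent measurements.

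Of the 10 members, the germline Argonautes prg-1, wago-1 and csr-1 did not pass the test in lin-35. PRG-1, the Piwi protein that binds piRNAs, stood at 34.98 and 38.2 RPKM (N2), 31.8 and 46.5 RPKM (lin-35) and 49.7 and 66.5 RPKM (htz-1). Its lin-35 libraries fell on either side of N2, and the htz-1 libraries lay above N2. The log2 fold change in lin-35 was -0.11 (95% interval -0.63 to 0.42, limma adjusted p = 0.777), and it turned positive, 0.20, without lin-35 replicate 1. WAGO-1, a secondary siRNA Argonaute of P granules, stood at 27.4 and 31.9 RPKM (N2), 19.7 and 30.2 RPKM (lin-35) and 36.5 and 46.5 RPKM (htz-1). Only lin-35 replicate 1 lay below the N2 range, while both htz-1 libraries lay above it. Its log2 fold change in lin-35 was -0.45 (95% interval -0.99 to 0.10, limma adjusted p = 0.217), and without lin-35 replicate 2 it was -0.78, with an adjusted p of 0.0432. CSR-1, an essential Argonaute whose guides match genes expressed in the germline, stood at 35.1 and 34.2 RPKM (N2), 47.2 and 48.3 RPKM (lin-35) and 37.4 and 43.4 RPKM (htz-1). Its lin-35 libraries did not overlap with N2, but the log2 fold change of 0.28 (95% interval 0.02 to 0.54, limma adjusted p = 0.119) did not pass.

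Neither rde-1 nor nrde-3 was called in lin-35. RDE-1, which takes up primary siRNAs from foreign double-stranded RNA, stood at 22.6 and 21.4 RPKM (N2), 28.5 and 25.2 RPKM (lin-35) and 19.9 and 18.3 RPKM (htz-1). The 3 genotypes did not overlap in these values, yet neither mutant passed against N2 (log2 fold change 0.10 in lin-35, limma adjusted p = 0.506, and -0.21 in htz-1, limma adjusted p = 0.154). NRDE-3, the nuclear Argonaute of somatic cells, stood at 8.10 and 7.21 RPKM (N2), 11.3 and 9.19 RPKM (lin-35) and 8.86 and 8.47 RPKM (htz-1). Both mutants lay above N2 without passing (0.22 in lin-35, limma adjusted p = 0.288, and 0.16 in htz-1, limma adjusted p = 0.393). Scaling matters for changes of this size. In the RPKM as deposited, the median gene was 0.15 higher on the log2 scale in lin-35 than in N2, 1781 genes were higher and 592 lower in place of 1175 and 1125, and 4 members were called higher, with csr-1 and alg-1 beside hrde-1 and ppw-1.

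**Figure D2:**
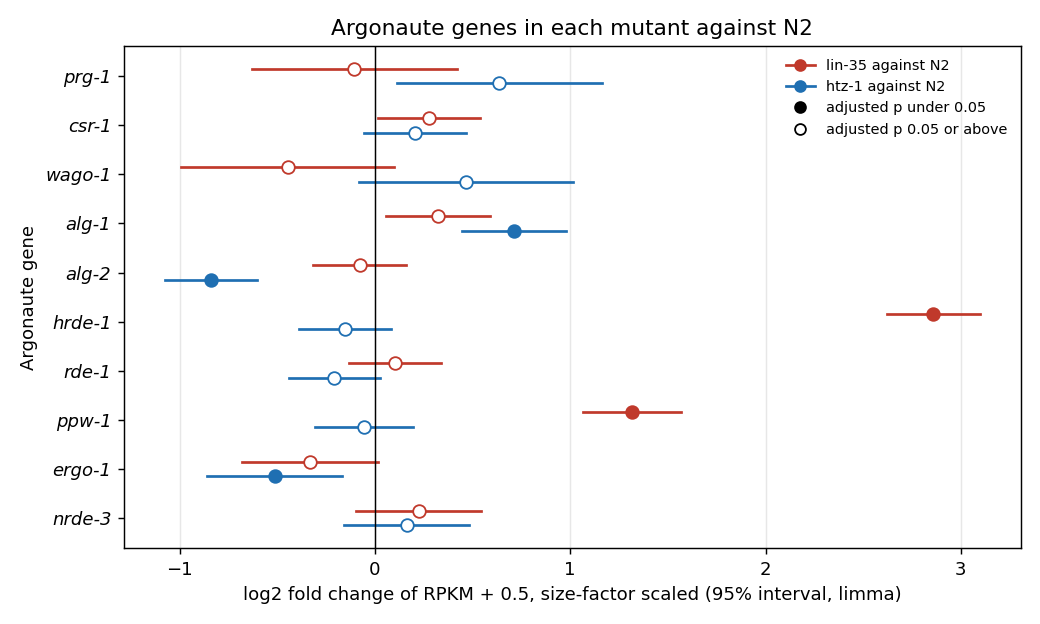
Log2 fold change of each Argonaute gene in lin-35 (red) and htz-1 (blue) against N2, with limma's 95% interval, on the scale of size-factor scaled RPKM + 0.5. Filled points passed at an adjusted p under 0.05: hrde-1 (2.86) and ppw-1 (1.32) in lin-35, and alg-1 (0.71), alg-2 (-0.84) and ergo-1 (-0.51) in htz-1.

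In htz-1 larvae, 1 Argonaute gene rose and 2 fell, against a background of 15.2% of tested genes higher and 16.5% lower (31.7% in either direction). The share of members called, 3 of 10, was thus close to that of all genes. They were alg-1, alg-2 and ergo-1, none of which was called in lin-35. Both mutants were compared with the same N2 libraries. The median log2 fold change of the members was 0.05, against -0.0046 over all tested genes.

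ALG-1 and ALG-2 are the main Argonautes of the microRNA pathway and overlap in function. The alg-1 transcript stood at 27.5 and 25.6 RPKM (N2), 41.9 and 34.1 RPKM (lin-35) and 47.1 and 41.2 RPKM (htz-1). Every mutant library was above N2. The ranges of the mutants overlapped slightly as deposited and did not overlap after scaling. Its log2 fold change in htz-1 was 0.71 (SE 0.11, 95% interval 0.45 to 0.98, limma adjusted p = 0.00461), a scaled level 1.65 times that of N2. In lin-35 it was 0.32 (SE 0.11, limma adjusted p = 0.0823), which did not pass, although it did without lin-35 replicate 2 (0.44, adjusted p = 0.0494).

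The alg-2 transcript went the other way in htz-1. It stood at 25.7 and 24.4 RPKM (N2), 26.1 and 27.7 RPKM (lin-35) and 14.2 and 13.6 RPKM (htz-1). The htz-1 libraries were well below the others, and lin-35 lay just above N2 as deposited. In htz-1 its log2 fold change was -0.84 (SE 0.10, 95% interval -1.08 to -0.60, limma adjusted p = 0.00173), a scaled level 0.551 times that of N2. In lin-35 the value was -0.08 (limma adjusted p = 0.633). The ratio of alg-1 to alg-2 RPKM was 1.07 and 1.05 (N2), 1.60 and 1.23 (lin-35) and 3.32 and 3.04 (htz-1). In their summed RPKM, alg-1 took 51.7% and 51.2% (N2), 61.6% and 55.2% (lin-35) and 76.8% and 75.2% (htz-1). The sum itself, as deposited, was 53.2 and 50.0 RPKM (N2), 68.0 and 61.8 RPKM (lin-35) and 61.3 and 54.7 RPKM (htz-1). A ratio within a library does not depend on the scaling between libraries, but this sum does.

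ERGO-1 binds the 26G class of primary siRNAs in oocytes and embryos. Its transcript stood at 19.7 and 17.04 RPKM (N2), 16.9 and 15.8 RPKM (lin-35) and 14.8 and 11.01 RPKM (htz-1). As deposited, both htz-1 libraries lay below the others, with replicate 2 the lowest. After scaling, the htz-1 libraries overlapped with lin-35 but not with N2. In htz-1 its log2 fold change was -0.51 (SE 0.15, 95% interval -0.86 to -0.17, limma adjusted p = 0.0359), and in lin-35 it was -0.33 (limma adjusted p = 0.151). The call in htz-1 held under 6 of 15 alternative settings. It was lost without any 1 of these libraries: N2 replicate 1 (-0.42, adjusted p = 0.201), N2 replicate 2 (-0.60, adjusted p = 0.0888), lin-35 replicate 1 or 2 (both -0.51, adjusted p = 0.0503 and 0.0501), or htz-1 replicate 2 (-0.33, adjusted p = 0.155). The span of ergo-1 overlaps that of pei-2, a gene with 0.46 and 0.66 RPKM in N2 and 2.25 to 3.28 RPKM in the mutant libraries.

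The germline Argonautes prg-1 and wago-1 were high in htz-1 without passing. The log2 fold change of prg-1 was 0.64 (SE 0.22, limma adjusted p = 0.0674) and that of wago-1 was 0.47 (SE 0.23, limma adjusted p = 0.167). Under alternatives the adjusted p of prg-1 ran from 0.0118 to 0.299. It passed without htz-1 replicate 1 (0.87, adjusted p = 0.0477), and also without lin-35 replicate 1 or 2 (0.64 in each, adjusted p = 0.0317 and 0.0319). In the same libraries csr-1 had a log2 fold change of 0.21 (limma adjusted p = 0.195), hrde-1 of -0.15 (limma adjusted p = 0.279) and ppw-1 of -0.06 (limma adjusted p = 0.722).

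The mutants were then compared with each other, which tests whether a member's level differed between them. Of the 10 Argonaute genes, 3 were higher in lin-35 and 3 were higher in htz-1, against 15.3% of tested genes higher in lin-35 and 14.5% lower (29.8% in either direction). Higher in lin-35 were hrde-1 (log2 difference lin-35 minus htz-1 3.01, SE 0.10, limma adjusted p = 2.7e-05), ppw-1 (1.37, SE 0.11, adjusted p = 0.000289) and alg-2 (0.76, SE 0.10, adjusted p = 0.00237). Higher in htz-1 were wago-1 (-0.91, SE 0.23, limma adjusted p = 0.0259), prg-1 (-0.74, SE 0.22, adjusted p = 0.0442) and alg-1 (-0.39, SE 0.11, adjusted p = 0.0406). The first 3 kept their call under all 15 alternative settings that used the 0.05 threshold, while wago-1 kept it under 11, prg-1 under 7 and alg-1 under 6. With the study's stricter thresholds applied to limma (adjusted p under 0.001 and a fold above 1.5) only hrde-1 and ppw-1 were called, and alg-2 was not. Without htz-1 replicate 2 only the first 3 were called. In limma the remaining 4 members did not pass, with log2 differences from 0.06 (nrde-3, 95% interval -0.26 to 0.38) to 0.31 (rde-1, 95% interval 0.08 to 0.54, adjusted p = 0.0535). The rde-1 difference passed with limma-voom on the recovered reads (0.32, adjusted p = 0.038) and in the RPKM as deposited (0.48, adjusted p = 0.0185).

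The germline Argonautes also differed in how they varied within a genotype. In lin-35 the ratio of replicate 2 to replicate 1, after scaling, was 1.52 for prg-1 and 1.58 for wago-1, above 95.8% and 96.7% of all tested genes. It was 1.07 for csr-1 and 0.96 for hrde-1. Of the 23 germline markers, 22 had a ratio above 1 in lin-35, from 0.97 to 1.78 over the list. In htz-1 the ratio was 1.38 for prg-1, 1.32 for wago-1, 1.20 for csr-1 and 1.05 for hrde-1, and 21 of 23 markers were above 1. In N2 it was 1.11 for prg-1, 1.18 for wago-1, 0.99 for csr-1 and 1.15 for hrde-1. In the lin-35 libraries prg-1 and wago-1 thus differed in the direction of most germline markers, while hrde-1 did not.

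**Figure D3:**
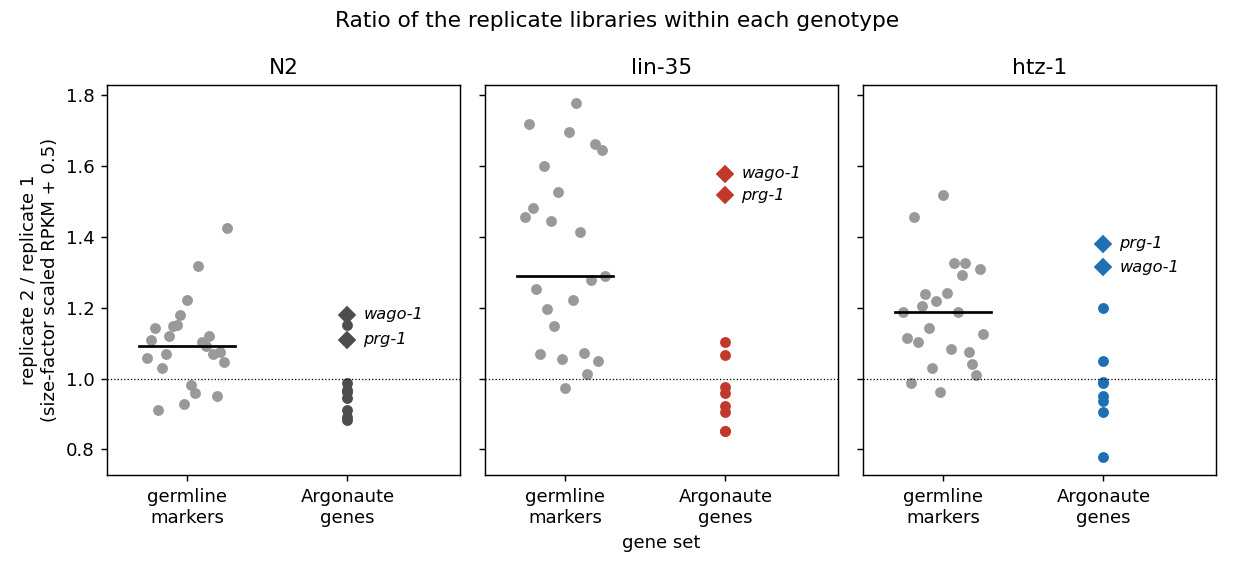
Ratio of replicate 2 to replicate 1 in each genotype, from size-factor scaled RPKM + 0.5, for 23 germline markers (grey, with their median as a bar) and the 10 Argonaute genes (coloured, with prg-1 and wago-1 as diamonds). In lin-35 the markers have a median of 1.29, and prg-1 and wago-1 stand at 1.52 and 1.58 while the remaining Argonaute genes lie between 0.852 and 1.103.

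Some germline markers differed between genotypes as well, and their part in the Argonaute results was not tested. In lin-35 6 of 23 tested markers rose and none fell (1 was lower at an unadjusted p under 0.05, and limma-voom called 6 and 0). Of all tested genes 12.1% were higher and 11.6% lower. The share of markers called was close to the 23.8% of all genes called in either direction. All called markers were higher, however, and their share was above the 12.1% of all genes higher. This excess was not tested. Their summed level as deposited was 361 and 388 RPKM (N2), 959 and 1035 RPKM (lin-35) and 438 and 514 RPKM (htz-1). No marker was listed at 0 in any library. The rise of the sum in lin-35 was uneven over the markers. The P granule gene pgl-3 had a log2 fold change of 4.17 and the meiotic chromosome axis and synapsis genes him-3 and syp-1 had 2.96 and 2.46, while the median over the 23 was -0.17. The 6 markers that rose had ratios of replicate 2 to replicate 1 from 0.97 (him-3) to 1.20 (glh-1) in lin-35, beside a median of 1.29 over the 23. In htz-1 7 markers rose and none fell (0 lower also without adjustment at p 0.05, and by limma-voom). Of all tested genes 15.2% were higher there and 16.5% lower. The share of markers called was close to the 31.7% of all genes called in either direction. Again all called markers were higher, a share above the 15.2% of all genes higher, which was not tested. The median log2 fold change of the markers in htz-1 was 0.39. The germline Argonautes stood at 0.64 (prg-1), 0.47 (wago-1), 0.21 (csr-1), -0.06 (ppw-1) and -0.15 (hrde-1). Sperm markers were near 0, with a sum of 2.06 to 4.23 RPKM over 9 genes in every library. Of the tested markers of somatic tissues in lin-35, 2 of 4 intestine genes rose and 1 fell, 3 of 4 muscle genes fell, 1 of 6 neuron genes rose and 1 fell, and the single epidermis gene rose. In htz-1, 2 of 4 intestine genes fell, no muscle gene was called (1 was higher at an unadjusted p under 0.05, and limma-voom called 0), 1 of 6 neuron genes rose and 1 fell, and the epidermis gene rose.

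The rest of the Argonaute family was read for comparison. The table held 13 further Argonaute genes, of which 8 were tested and 5 (alg-3, alg-4, wago-5, wago-10 and wago-11) were under the filter. In lin-35, 3 of the 8 rose and 1 fell, beside 12.1% of all tested genes higher and 11.6% lower. The largest rise was in vsra-1, at 7.77 and 7.41 RPKM (N2), 59.3 and 42.9 RPKM (lin-35) and 11.6 and 12.2 RPKM (htz-1) (log2 fold change 2.48, limma adjusted p = 0.000113). Every lin-35 library was well above both other genotypes, as for hrde-1, and htz-1 was above N2 as well (0.61, limma adjusted p = 0.0206). Next to it were sago-2 (1.28, limma adjusted p = 0.000625) and sago-1 (0.44, limma adjusted p = 0.0271), whose proteins bind secondary siRNAs. The gene that fell was ppw-2, also known as wago-3, a germline WAGO, at 57.0 and 60.9 RPKM (N2) and 26.4 and 42.8 RPKM (lin-35) (-0.98, limma adjusted p = 0.0254). In htz-1 2 of the 8 rose and none fell (0 lower also without adjustment at p 0.05, and by limma-voom). Of all tested genes 15.2% were higher in htz-1 and 16.5% lower. Of these 2 Argonaute genes sago-1 had the larger change, from 13.7 and 14.7 RPKM (N2) to 27.5 and 29.9 RPKM (0.98, limma adjusted p = 0.00142). The Piwi paralog prg-2, nearly identical to prg-1, stood at 34.0 and 33.7 RPKM (N2), 26.4 and 39.3 RPKM (lin-35) and 42.7 and 53.4 RPKM (htz-1). Since reads may be shared between these copies, the values of either one are uncertain.

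**Figure D4:**
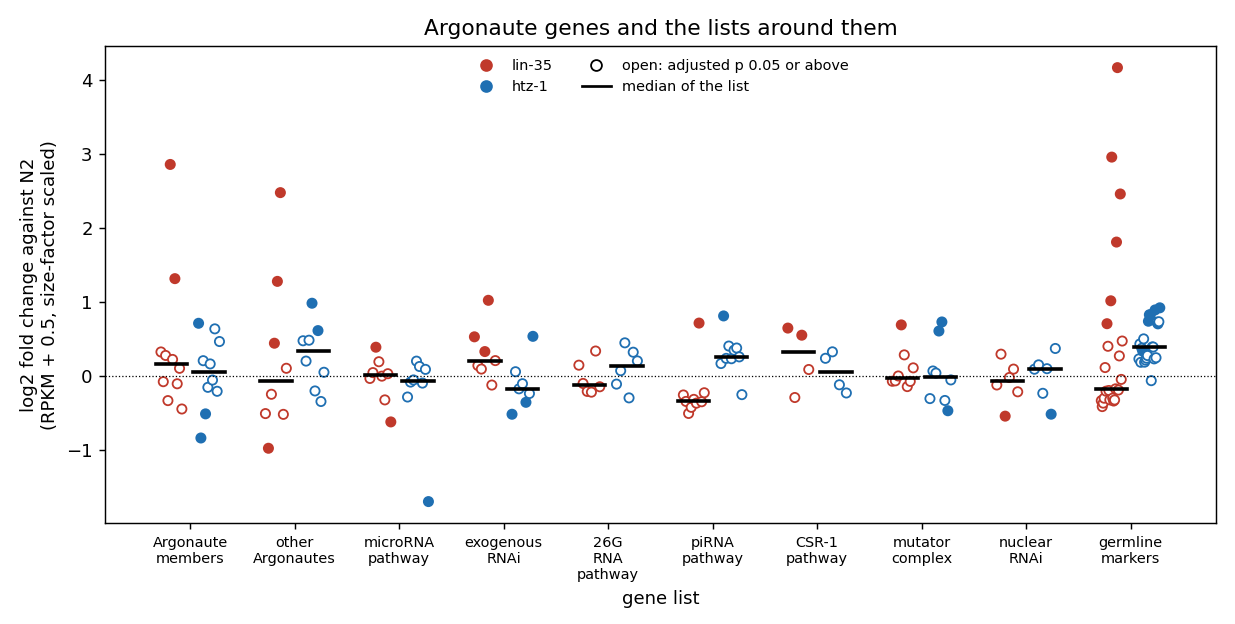
Log2 fold change against N2 of each tested gene in the Argonaute list, 8 further Argonaute genes, 7 lists of small RNA pathway genes and 23 germline markers, in lin-35 (red) and htz-1 (blue). Filled points passed at an adjusted p under 0.05 and black bars are list medians. The highest points in lin-35 are pgl-3 (4.17), him-3 (2.96), hrde-1 (2.86) and vsra-1 (2.48), and the lowest point in htz-1 is vig-1 (-1.70).

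The partners of the Argonautes in 7 pathway lists showed no change as large as that of hrde-1. Of 48 tested genes, 8 rose and 2 fell in lin-35 (median log2 fold change -0.03), and 4 rose and 5 fell in htz-1 (median 0.07). The called shares in either direction, 10 and 9 of 48, did not exceed those of all tested genes given above. The share higher in lin-35, 8 of 48, was above the 12.1% of all tested genes. Of the 8 microRNA pathway genes around alg-1 and alg-2, dcr-1, which encodes Dicer, rose in lin-35 (0.39, limma adjusted p = 0.0474). The gene vig-1, whose product was found in the microRNA effector complex, fell in both mutants (-0.62 in lin-35, limma adjusted p = 0.0142, and -1.70 in htz-1, limma adjusted p = 0.00052), with 652 and 677 RPKM (N2), 472 and 507 RPKM (lin-35) and 183 and 230 RPKM (htz-1). It was the one gene of this list called in htz-1.

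In the list for RNA interference triggered by foreign double-stranded RNA, around rde-1, 3 of 7 rose in lin-35 and none fell, while 1 rose and 2 fell in htz-1 (no gene was lower in lin-35 at an unadjusted p under 0.05 or with limma-voom). The double-stranded RNA binding protein gene rde-4, whose product works with Dicer and RDE-1, stood at 25.5 and 28.1 RPKM (N2), 63.2 and 61.2 RPKM (lin-35) and 22.3 and 19.7 RPKM (htz-1). The lin-35 libraries were above all others and htz-1 below (log2 fold changes 1.02, limma adjusted p = 0.000643, and -0.36, limma adjusted p = 0.0343). The Dicer-related helicase gene drh-1 went the same ways (0.53 in lin-35, limma adjusted p = 0.0259, and -0.52 in htz-1, limma adjusted p = 0.0233). The dsRNA importer gene sid-1 rose in htz-1 (0.54, limma adjusted p = 0.0191).

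Around csr-1, 2 of 4 genes rose in lin-35: the helicase gene drh-3 (0.65, limma adjusted p = 0.00436) and the Tudor domain gene ekl-1 (0.55, limma adjusted p = 0.0081), which with the RNA-dependent RNA polymerase gene ego-1 make the guides of CSR-1. The ego-1 gene itself had a log2 fold change of -0.29 (limma adjusted p = 0.411). None of the 4 was called in htz-1 (1 was lower at an unadjusted p under 0.05, and limma-voom called 0). Around prg-1, 1 of 9 piRNA pathway genes rose in each mutant: tofu-2 in lin-35 (0.72, limma adjusted p = 0.0156) and parn-1, whose product trims piRNA ends, in htz-1 (0.81, limma adjusted p = 0.0255). The median of this list was -0.34 in lin-35 and 0.26 in htz-1. Between the mutants 5 of the 9 were lower in lin-35 and none higher, beside 14.5% of all tested genes lower and 15.3% higher. Limma-voom called 4 lower and 0 higher, and 0 were higher without adjustment at p 0.05. The prg-1 difference had the same direction, though its call held under only 7 of 15 alternative settings.

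Around ergo-1, none of the 6 tested genes of the 26G RNA pathway was called in either mutant by limma or by limma-voom, and at an unadjusted p under 0.05 there was 1 higher in lin-35 and 2 higher in htz-1. Of the 8 genes of the mutator complex, which amplifies secondary siRNAs, mut-2 rose in lin-35 (0.69, limma adjusted p = 0.0275). In htz-1 mut-7 rose (0.73, limma adjusted p = 0.00504), as did mut-2 (0.61, limma adjusted p = 0.035), and the RNA-dependent RNA polymerase gene rrf-1 fell (-0.47, limma adjusted p = 0.04). Of the 6 genes that act with HRDE-1 and NRDE-3 in the nucleus, none rose in lin-35 (1 was higher at an unadjusted p under 0.05, and limma-voom called 0) and nrde-2 fell (-0.54, limma adjusted p = 0.00677). In htz-1 the H3K9 methyltransferase gene set-25 fell (-0.52, limma adjusted p = 0.0382). The summed level of these 6 genes as deposited was 79.0 and 75.7 RPKM (N2), 77.5 and 77.7 RPKM (lin-35) and 74.0 and 77.8 RPKM (htz-1). After scaling it was 81.8 and 79.7 RPKM (N2), 70.0 and 73.1 RPKM (lin-35) and 75.6 and 82.2 RPKM (htz-1).

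For each member called against N2, the tested gene with the most similar profile over the 6 libraries was found by the root mean square difference of centred log2 values. For hrde-1 it was B0361.11 (difference 0.09), which was near 0 in N2 and htz-1 (0.03 to 0.11 RPKM) and stood at 4.70 and 3.52 RPKM in lin-35. This gene passed the filter only through its lin-35 libraries, and its likeness to hrde-1 rests on the 0.5 added before the logarithm, since its ratio between genotypes in RPKM is far larger. On the same scale 9 genes lay within 0.2 of hrde-1. For ppw-1 it was mrt-1 (difference 0.05), a telomere replication gene, at 4.50 and 3.78 RPKM (N2), 12.6 and 11.6 RPKM (lin-35) and 3.74 and 3.60 RPKM (htz-1), with 51 genes within 0.2. For the members called in htz-1 the nearest genes were pdk-1 for alg-1, ddx-17 for alg-2 and emc-1 for ergo-1 (differences 0.05, 0.04 and 0.03), and 647, 407 and 1532 genes lay within 0.2.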

How the data were processed

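mRNA of whole L3 larvae was measured in 6 libraries (N2, lin-35 and htz-1). The authors aligned reads to WS220/ce10 with BWA, obtained gene counts with HTSeq (union mode, WS235 exons lifted to ce10) and deposited RPKM, with their own DESeq2 fold changes and p-values, which were not used. They left out genes that oscillate in larval development. Strand use and the treatment of reads with several matches are not given in the sources used here. For 100% of 15568 genes a model length was found at which the reads behind the RPKM were whole (tolerance 1e-05 reads). The shortest such length was taken, so a factor shared by all counts of a gene is lost and true counts may be larger. By these reads, at least 73.9% to 77.2% of each library lay in listed genes.

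RPKM were divided by median-of-ratios size factors and fitted with limma 3.58.1 in R 4.3.3 (variance trend, pseudocount 0.5, mean RPKM at least 1, all genotypes in 1 fit, 3 residual degrees of freedom plus 4.01 from the prior, two-sided, Benjamini-Hochberg over 9679 genes). On this scale the changes of weakly expressed genes are understated. The fit was tested on simulated data. The members and lists were chosen with earlier results of these data known, and the named genes are all members, up to 3 called genes per list with the largest change, and the nearest profile of each called member. Further genes (ppw-2, prg-2, pei-2, ego-1, the Argonaute genes under the filter and the genes beside members) were named after their values were seen. Names came from a WBcel235 gene table that matched 15397 genes, and no coordinates of it are printed. Alternatives were other scalings, pseudocounts and filters, a replicate block, fewer genotypes, no variance trend, limma-voom on recovered reads, and each library left out. The study's stricter thresholds were applied as well and are not among the 15 alternatives counted in the text. ChIP-seq libraries were not analysed here.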

Additional observations from a re-analysis of the deposited data

Results flagged for a closer look

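When lin-35 was tested against htz-1 in limma, 6 of the 10 Argonaute genes were called, beside 29.8% of all tested genes. This is the test of the difference between the mutants' changes from the shared N2 libraries. The log2 differences, lin-35 minus htz-1, were 3.01 for hrde-1, 1.37 for ppw-1, 0.76 for alg-2, -0.39 for alg-1, -0.74 for prg-1 and -0.91 for wago-1. For hrde-1, ppw-1 and alg-2 both lin-35 libraries were above both htz-1 libraries in every case, and the call did not depend on any 1 library. For prg-1 the difference was -0.44 (adjusted p = 0.177) without lin-35 replicate 1 and -0.51 (adjusted p = 0.208) without htz-1 replicate 2. For wago-1 these values were -0.58 (adjusted p = 0.0916) and -0.71 (adjusted p = 0.133). For alg-1 the difference was -0.27 (adjusted p = 0.141) without lin-35 replicate 2 and -0.32 (adjusted p = 0.145) without htz-1 replicate 1. With 2 libraries per genotype no test for an outlying library was possible.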

How the results depend on the processing

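Under all 15 alternatives that used the 0.05 threshold, hrde-1 (2.76 to 3.04) and ppw-1 (1.23 to 1.49) were higher in lin-35. Under the same alternatives alg-1 (0.64 to 0.78) was higher and alg-2 (-0.86 to -0.82) lower in htz-1. The study set its stricter thresholds for DESeq2, and here they were applied to limma's adjusted p. At these thresholds hrde-1 and ppw-1 kept their call in lin-35, while alg-1 and alg-2 lost theirs in htz-1. Whether alg-1 and alg-2 pass in the study's own DESeq2 values was not checked. The members called in lin-35 numbered 2, but 4 in the RPKM as deposited, 4 with the replicate block and 2 to 4 without 1 library. In htz-1 they numbered 3, but 5 with the replicate block, 0 at the stricter thresholds of the study (0.001 for the adjusted p and a fold above 1.5) and 2 to 4 without 1 library. Between the mutants they numbered 6, but 7 with the replicate block and 7 with limma-voom (rde-1 added in both), 5 in the RPKM as deposited, 4 with only the 2 genotypes compared, 3 without a filter, 3 without a variance trend, 2 at those stricter thresholds and 3 to 5 without 1 library. The block used replicate numbers that may not mark shared samples, since deviations of same-numbered libraries correlated at 0.32 (N2 and lin-35), 0.10 (N2 and htz-1) and 0.02 (lin-35 and htz-1). Signs turned for values that had not passed: in lin-35, prg-1 became 0.072 and alg-2 0.0996 in the RPKM as deposited, and prg-1 ran from -0.406 to 0.195 (without lin-35 replicate 1) with 1 library left out. In htz-1, ppw-1 ran from -0.138 to 0.0274 (without N2 replicate 1). Between the mutants, csr-1 ran from 0.202 to -0.0604 (without htz-1 replicate 1), ergo-1 from 0.361 to -0.0022 (without htz-1 replicate 2), and nrde-3 from 0.175 to -0.0540 (without lin-35 replicate 1) and to -0.0544 with quantile normalization. The cause was not tested. Where a library was left out, the lone library was assumed to vary like the other genotypes. The calls over all tested genes moved with the setting too, so the member counts have different backgrounds. Against N2, htz-1 had 1474 genes higher and 1594 lower in the main fit, and 1651 and 1740 with the replicate block. Between the mutants these were 1484 and 1405 in the main fit, and 1031 and 774 of 15568 genes without a filter.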

Other observations

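The genes beside hrde-1 differed from each other. C16C10.13 stood at 0.11 and 0.20 RPKM in N2, 7.48 and 5.28 RPKM in lin-35, and 0.17 and 0.07 RPKM in htz-1, so that it was high in both lin-35 libraries and near 0 in the others. It passed the filter on low values only through the lin-35 libraries, so no test is given for it. C16C10.4 was lower in lin-35 than in N2, at 12.3 and 12.9 RPKM against 16.6 and 15.4 RPKM (-0.50, limma adjusted p = 0.0152). Neither gene's span overlaps that of hrde-1 in the gene table used for names. The neighbours of ppw-1, kel-20 and cas-2, were not called in lin-35 (0.21 and 0.20, limma adjusted p = 0.459 and 0.347).

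Among the Argonaute genes left out of the tests for low values, wago-11 stood at 0.06 and 0.02 RPKM in N2, 0.37 and 0.32 RPKM in lin-35, and 0.91 and 1.90 RPKM in htz-1. The spermatogenesis Argonaute genes alg-3 and alg-4 stood at 0.65 RPKM or less and 0.06 RPKM or less in every library.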
